A study of Rattus norvegicus with 12 samples.

Results

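Rings cut from rat aorta were embedded in a gel of fibrin or of collagen, and the comparison described here is fibrin minus collagen in the cultures that received no tumor necrosis factor (TNF). It rests on 6 of the 12 arrays of the study, 3 labelled as fibrin control and 3 as collagen control, chosen by the treatment label and title of each sample. The other 6 arrays are of the same 2 gels with 10 ng/ml recombinant rat TNF. Their levels are given only where TNF is named. They also entered the choice of probe set and the pooled spread behind every standard error and adjusted p. All rings came from male Fisher 344 rats 1 to 2 months of age, were kept in serum-free EBM medium (an endothelial basal medium), and were collected on day 2. Each array holds RNA pooled from 4 to 6 ring cultures, of which 200 ng was labelled. The tissue label of the fibrin samples also names collagen gels; their titles and treatment labels name fibrin, and these were followed. The titles call the 3 samples of a group biological replicates without saying whether they came from separate animals, so every p-value measures the spread between these pooled samples.

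In this assay the ring is an explant: endothelial cells, smooth muscle cells, fibroblasts and macrophages of the vessel wall respond to the cut and to the gel, and sprouts grow out of it without added serum. Collagen is a fibrous matrix protein bound by a set of integrins and discoidin domain receptors. Fibrin is the polymer of a blood clot, bound by other integrins and degraded by plasmin. In both groups the gel was lysed together with its ring, so the comparison is between whole cultures. Interferon target genes fill much of what follows, and which type of interferon they would answer to was not tested. Type I interferon signalling runs from sensors of nucleic acid to secreted interferon, then through the kinases JAK1 and TYK2 to a complex of transcription factors. That complex binds the interferon-stimulated response element (ISRE) of its target genes. NF-kB, the other pathway described at length, is held in the cytoplasm by inhibitors that its own activity induces.

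The deposited values were on a log2 scale, and each of 14324 genes was represented by 1 probe set. A principal component analysis of the 6 arrays placed 67.6% of the variance on a component with all fibrin arrays at one end and all collagen arrays at the other, and 10.5% on the next. Across genes, each array correlated at 0.9965 or more with the arrays of its own gel and at 0.9906 or less with those of the other gel. The median of all probe sets was 5.95 to 5.98 on the collagen arrays and 5.89 to 5.91 on the fibrin arrays. Genes of the smooth muscle contractile list were measured in both gels. Des, desmin, which is also in the pericyte list, read 8.89, 9.30 and 9.10 on the collagen arrays and 8.32, 8.71 and 8.57 on the fibrin arrays.

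Without TNF, 1510 of 14324 genes (10.5%) differed between the gels (limma, Benjamini-Hochberg adjusted p under 0.05), 767 higher in fibrin (5.35%) and 743 lower (5.19%). The median log2 difference over all genes was -0.01 and its median standard error 0.094. The 2 directions were unlike in size. Of the higher genes 173 differed by 1 or more on the log2 scale and 57 by 2 or more, 24 of them by 3 or more; of the lower genes 59 differed by 1 or more and 3 by 2 or more. The split depended on scaling: with each array centred on its own median, 1217 genes were higher and 474 lower, since centring moved the median difference to 0.05. Without fibrin replicate 1 the lower calls numbered 482. With only the 6 untreated arrays fitted, 1228 genes were called, 649 higher and 579 lower. Gene lists by function and cell type, read against these shares, covered 115 of the 173 genes higher by 1 or more, 37 of them in the interferon target lists and 42 in the inflammation lists. The lists were chosen with earlier results of these data known, so this coverage is a description and not a test.

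**Figure D1:**
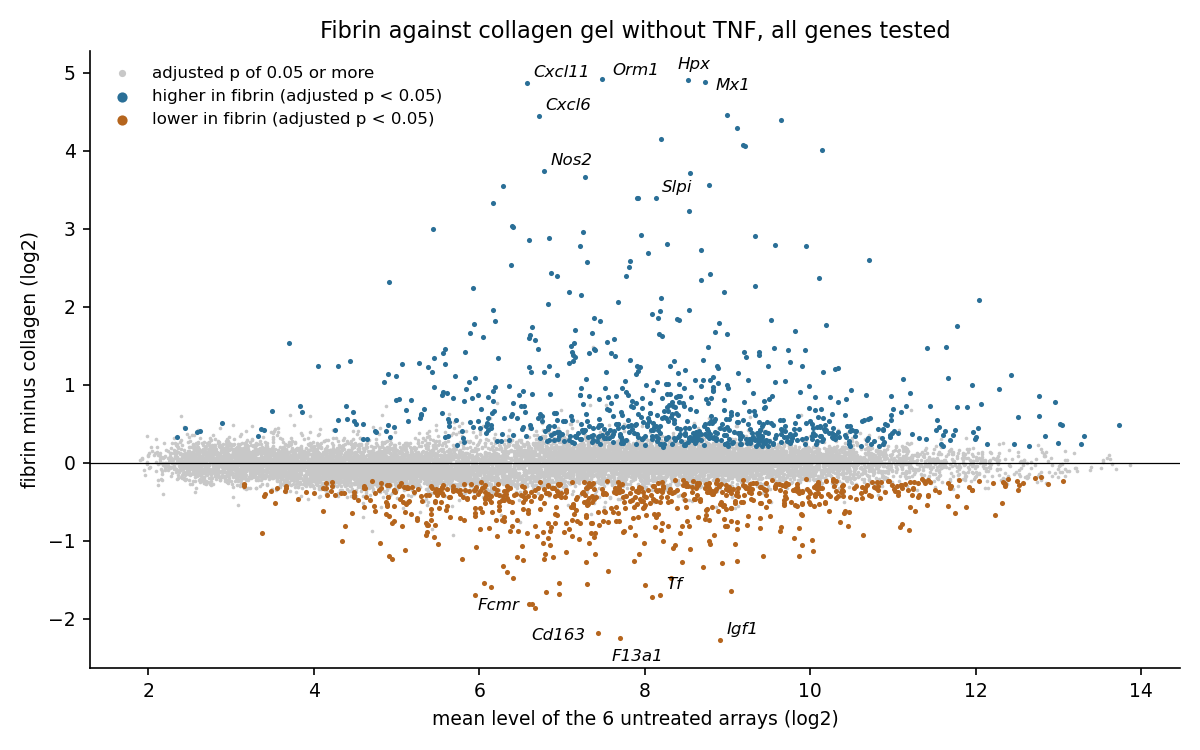
Log2 difference of fibrin minus collagen without TNF (y axis) against the mean log2 level of the 6 untreated arrays (x axis) for the 14324 genes tested; blue points were called higher and brown points lower (limma, adjusted p under 0.05). The higher calls reached 4.92 (Orm1), while the lower calls ended at -2.27 (Igf1).

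The genes that stood out most were targets of interferon. Of 53 measured members of 3 interferon target lists (antiviral effectors, ISG15 conjugation, and guanylate binding proteins with immunity related GTPases), 46 were higher in fibrin and 0 lower, with a median log2 difference of 1.54. Mx1, a dynamin-like GTPase that blocks viral ribonucleoproteins, read 6.51, 6.77 and 5.58 on the collagen arrays and 11.16, 11.22 and 11.13 on the fibrin arrays, a log2 difference of 4.89 ± 0.27 (SE; limma, Benjamini-Hochberg adjusted p = 2.56e-07). Ifit3, which takes part in recognising foreign RNA caps, read 7.51, 7.58 and 5.83 in collagen and 11.34, 11.18 and 11.24 in fibrin (4.28 ± 0.38, adjusted p = 9.18e-06). The fibrin arrays lay close together for both genes, whereas collagen replicate 3 lay clearly below the other collagen arrays. The gels did not overlap for either gene, as was so for 2045 of all genes tested in this direction (14.3%).

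The same placement of collagen replicate 3 was seen over the whole group: the mean log2 level of the 53 target genes was 7.56, 7.59 and 7.32 on the collagen arrays and 9.37, 9.27 and 9.33 on the fibrin arrays. Without that array, 34 of the 43 antiviral effectors were called higher, against 36 with it. The count was also 34 without collagen replicate 1 or 2 or fibrin replicate 1, and 35 without fibrin replicate 2 or 3. The log2 difference of Mx1 ranged over 4.53 to 5.13 across the 16 alternative settings. Mx2, the paralogue of Mx1, read 8.42, 8.85 and 7.14 in collagen and 12.16, 12.08 and 12.18 in fibrin. Rsad2 (viperin, a radical enzyme that makes a chain-terminating nucleotide) read 7.50, 7.77 and 7.09 in collagen and 12.02, 11.72 and 11.79 in fibrin, a difference of 4.39 ± 0.27 (adjusted p = 4.79e-07). Oas1a and Oasl, relatives in the oligoadenylate synthetase family, differed by 3.67 and 3.72.

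ISG15 is a ubiquitin-like protein that is attached to other proteins by an interferon-induced cascade, and all 5 measured genes of that cascade were higher in fibrin. Isg15 itself read 7.29, 7.67 and 6.50 in collagen and 11.27, 11.12 and 11.29 in fibrin, and the activating enzyme Uba7 and the conjugating enzyme Ube2l6 differed by 1.69 ± 0.19 and 1.24 ± 0.09. The ligase Herc6 differed by 3.39 ± 0.18. Usp18, which removes ISG15 and dampens the interferon receptor, read 6.59, 6.56 and 5.22 in collagen and 10.53, 10.02 and 10.28 in fibrin. Thus the enzymes that attach and the enzyme that removes ISG15 were higher in the same arrays. All 5 measured guanylate binding proteins and immunity related GTPases, which attack the membranes around intracellular pathogens, were higher too: Gbp5 by 2.90, Irgm by 1.85, Gbp2 by 1.76 and Igtp by 1.36 on the log2 scale.

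Promoters are printed because many of these genes moved together and because the ISRE is a short, known element. RefSeq promoter windows (build GRCr8) of 300 bases, 250 before the start of transcription and 50 after, were found for 11805 of the 14324 genes. The ISRE core searched was GAAANNGAAA on both strands. Below are the 250 bases before the start for 5 interferon targets with a match, 5′ to 3′ on the gene's strand, with each match in capitals: Cxcl10 (chr14:15988816-15989065 on the plus strand), Rsad2 (chr6:48788121-48788370 on the minus strand), Ifit3 (chr1:241527076-241527325 on the plus strand), Irf7 (chr1:205800024-205800273 on the minus strand) and Oas1a (chr12:41330216-41330465 on the plus strand).
Cxcl10: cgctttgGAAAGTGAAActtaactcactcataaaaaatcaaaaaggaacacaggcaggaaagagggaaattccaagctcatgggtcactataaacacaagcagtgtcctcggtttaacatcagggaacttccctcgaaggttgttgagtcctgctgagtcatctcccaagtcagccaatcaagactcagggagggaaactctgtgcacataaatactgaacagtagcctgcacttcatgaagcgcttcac
Rsad2: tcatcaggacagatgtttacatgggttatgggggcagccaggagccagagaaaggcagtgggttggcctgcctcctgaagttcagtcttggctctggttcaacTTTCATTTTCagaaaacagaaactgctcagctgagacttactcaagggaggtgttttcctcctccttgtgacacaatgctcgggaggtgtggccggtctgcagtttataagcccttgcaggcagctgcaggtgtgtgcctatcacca
Ifit3: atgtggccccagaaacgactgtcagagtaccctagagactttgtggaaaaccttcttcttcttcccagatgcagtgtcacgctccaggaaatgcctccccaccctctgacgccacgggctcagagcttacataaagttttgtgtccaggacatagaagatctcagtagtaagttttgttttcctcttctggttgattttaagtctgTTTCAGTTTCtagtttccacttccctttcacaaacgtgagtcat
Irf7: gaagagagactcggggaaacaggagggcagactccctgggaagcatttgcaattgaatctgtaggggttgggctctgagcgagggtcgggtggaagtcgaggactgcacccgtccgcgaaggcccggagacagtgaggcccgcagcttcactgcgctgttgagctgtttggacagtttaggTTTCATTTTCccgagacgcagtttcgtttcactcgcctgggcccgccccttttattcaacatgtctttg
Oas1a: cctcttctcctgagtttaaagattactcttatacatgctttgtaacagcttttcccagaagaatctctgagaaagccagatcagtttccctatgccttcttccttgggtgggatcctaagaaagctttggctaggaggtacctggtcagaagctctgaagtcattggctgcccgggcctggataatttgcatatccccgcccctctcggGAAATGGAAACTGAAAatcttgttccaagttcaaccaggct

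The match began 44 bases before the start in Ifit3, 69 in Irf7, 147 in Rsad2 and 243 in Cxcl10, on the opposite strand for all but Cxcl10. Oas1a held 2 overlapping matches on its own strand, from 41 and 35 bases before the start. This core was in 3.77% of all 27457 promoters of the RefSeq table, and over the genes tested 403 of 11805 (3.41%) did. It was present in 61 of 620 promoters of genes called higher in fibrin (9.84%), in 33 of 135 of those higher by 1 or more (24.4%), and in 12 of 599 of those called lower (2%). Turned round, 61 of the 403 genes with the core were called higher (15.1%) against 559 of 11402 without it (4.9%). Of the interferon target lists 22 of 40 promoters held the core (55%). Mx1, Cxcl11 and Oasl held no match in the part of their window before the start, which says only that these letters are not there.

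**Figure D2:**
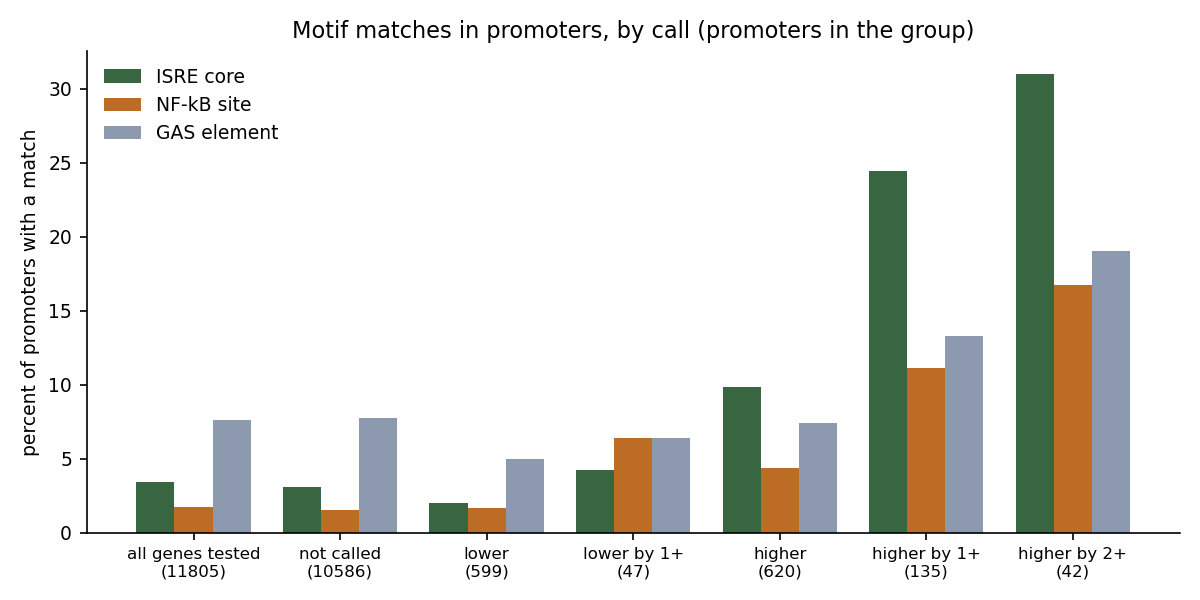
Percent of 300-base promoters with a match to the ISRE core, the NF-kB site or the GAS element (y axis), for all genes tested and for groups of genes by their call in fibrin minus collagen without TNF (x axis; number of promoters in brackets). The ISRE core rose from 3.41% of all genes tested to 24.4% of genes higher by 1 or more, and was in 2% of the genes called lower.

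Upstream of these targets, the listed interferon genes with a value, Ifnb1, Ifna4, Ifng and Ifnk, were not called. Other interferon genes are not described. Ifnb1, interferon beta, read 3.40, 3.44 and 2.99 in collagen and 3.73, 3.46 and 3.43 in fibrin, with overlap between the gels and an adjusted p of 0.415 (limma). Ifna4 and Ifng differed by 0.06 and 0.04, also without a call. The readings of Ifnb1 and Ifng lay in the lower part of the range of all values, 1.44 to 14.07. Of 10 measured ligands, receptors and kinases 2 were higher: the receptor chain Ifnar1 by 0.41 and the kinase Jak2 by 0.91.

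Of 11 measured interferon transcription factors 6 were higher and 0 lower. Irf7, the factor that amplifies interferon production, read 7.28, 7.72 and 6.54 in collagen and 11.21, 11.32 and 11.19 in fibrin, a log2 difference of 4.06 ± 0.24 (limma, adjusted p = 3.64e-07). Irf9 and Stat2, components of the ISRE-binding complex, differed by 1.42 ± 0.09 and 1.38 ± 0.10, and Irf1 by 0.63 ± 0.09. Irf3, the factor activated by phosphorylation downstream of the sensors, did not pass at 0.10. Of 12 measured sensors and adaptors 6 were higher and 0 lower. Among them, the cytosolic RNA sensors Ifih1 (MDA5) and Dhx58 (LGP2) differed by 1.65 ± 0.13 and 2.19 ± 0.16, the Z-form nucleic acid sensor Zbp1 by 1.60 ± 0.16 and the endosomal RNA receptor Tlr7 by 0.55 ± 0.11. Their adaptors Mavs (-0.05) and Myd88 (0.12) did not pass.

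Antigen presentation divided by class. Of 17 measured genes of MHC class I and its peptide supply, 16 were higher in fibrin and 0 lower, with a median of 0.77. Tap1, a subunit of the transporter that carries peptides into the endoplasmic reticulum, read 9.03, 8.99 and 9.02 in collagen and 10.46, 10.49 and 10.42 in fibrin (1.44 ± 0.07; limma, adjusted p = 1.33e-07). The class I gene RT1-S3 differed by 2.36 ± 0.12, and the immunoproteasome subunits Psmb8, Psmb9 and Psmb10 by 1.24, 1.29 and 0.93. Rat class I genes are close copies of each other, so signal may be shared among their probe sets.

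Of 11 measured genes of MHC class II presentation 3 were lower, 5 without collagen replicate 3. Their median was -0.45, and -0.14 without collagen replicate 1. The peptide exchange factor genes RT1-DMb and RT1-DMa differed by -1.18 ± 0.23 and -0.67 ± 0.09, and the lysosomal thiol reductase gene Ifi30 by -0.54 ± 0.07. The list held 1 higher call, Ctss, a lysosomal protease, which was lost without collagen replicate 1 or 3 or fibrin replicate 1. Cd74, the invariant chain, read 8.92, 7.81 and 7.54 in collagen and 7.67, 7.56 and 7.68 in fibrin and did not pass (adjusted p = 0.354, limma). Ciita, the master regulator of the class, differed by -0.06 without a call.

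**Figure D3:**
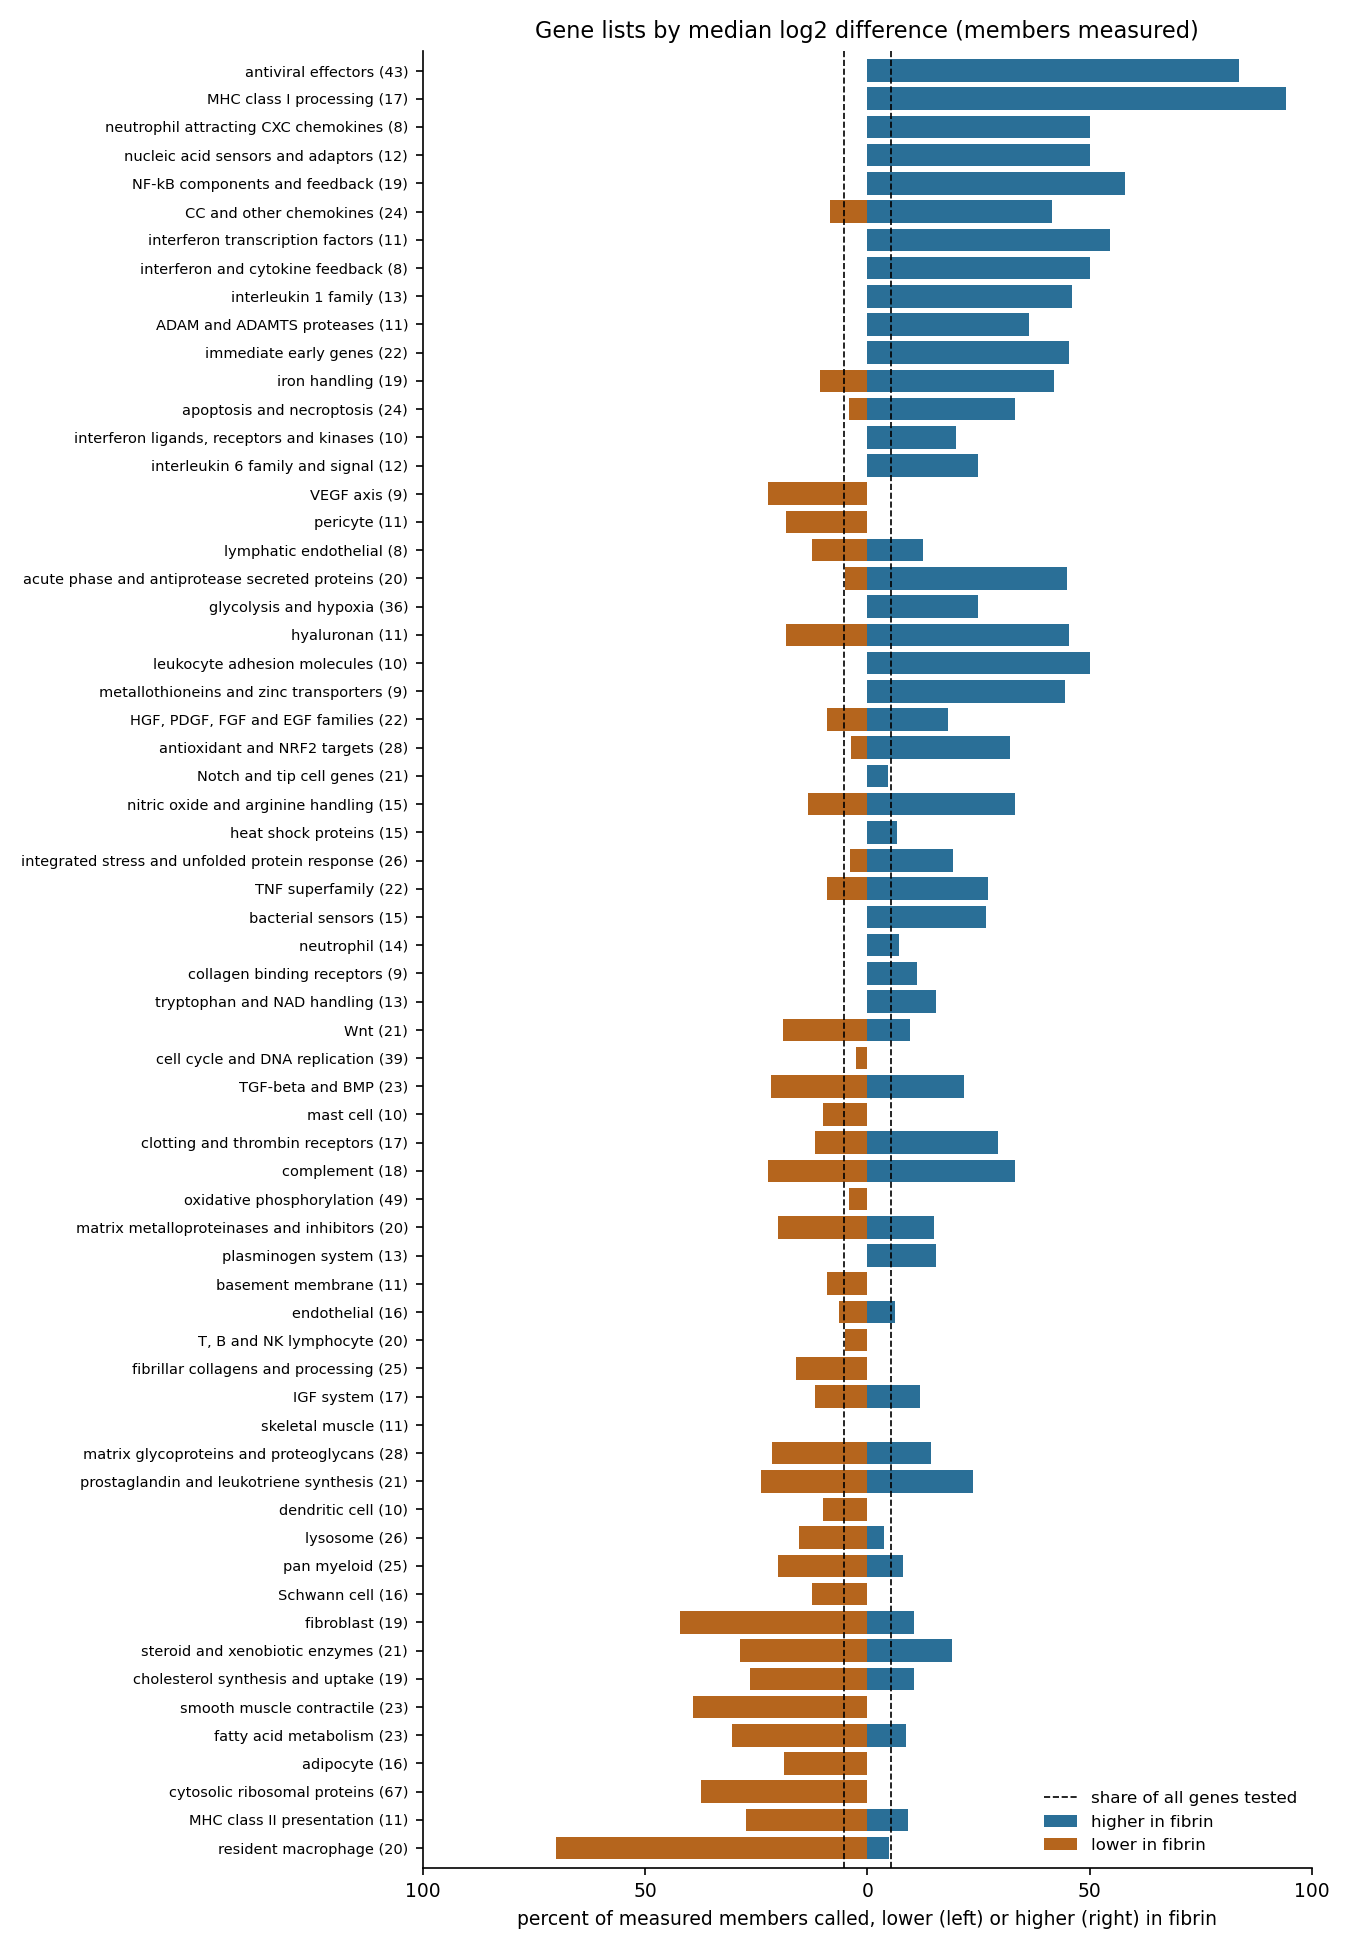
Percent of the measured members of each gene list called higher (right, blue) or lower (left, brown) in fibrin without TNF, for lists with 8 or more measured members, ordered by the median log2 difference; brackets give the number measured and dashed lines the shares among all genes tested (5.35% higher, 5.19% lower). Antiviral effectors and MHC class I processing head the order, and resident macrophage genes close it.

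Chemokine genes were the next group. Of 36 measured over 3 lists, 17 were higher in fibrin and 2 lower, with a median of 0.55, or 1.75 when the third of genes of lowest mean was left out. These lists also hold the receptors Cxcr1, Cxcr2 and Cxcr3, which were not called. Among the alternatives, Cxcr2 was called higher only without fibrin replicate 2. The ligands of CXCR3, which draw T cells and are themselves interferon targets, were far apart: Cxcl10 read 6.40, 6.97 and 6.94 in collagen and 11.38, 11.14 and 11.18 in fibrin, and Cxcl11 3.61, 4.34 and 4.48 and 8.93, 9.13 and 8.96. Cxcl9 differed by 3.55 ± 0.25 (limma, adjusted p = 1.11e-06). For these 3 genes collagen replicate 3 was not the lowest array, unlike for Mx1 and Ifit3. Of 8 measured genes for neutrophil-attracting ligands and their receptors, 4 were higher, all of them ligands. Cxcl6 read 4.71, 4.23 and 4.57 in collagen and 9.89, 8.60 and 8.35 in fibrin. Cxcl1 read 6.87, 6.82 and 7.10 and 10.53, 10.02 and 9.89, and Cxcl2 and Cxcl3 differed by 2.53 and 0.69. Fibrin replicate 1 was the highest array for Cxcl6, Cxcl1, Cxcl2 and Cxcl3. Pf4, in the same list, was not called, but it was called lower in 9 of 16 alternatives.

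Among ligands for monocytes, Ccl7 differed by 2.77 ± 0.17, Ccl2 by 1.75 ± 0.18, Ccl3 by 2.73 ± 0.18 and Ccl4 by 2.11 ± 0.20. Cxcl13, which organises B cells, read 11.11, 11.31 and 10.58 in collagen and 13.29, 13.14 and 12.82 in fibrin, and Ccl19, a ligand of CCR7, differed by 1.66 ± 0.14. Cxcl12, the constitutive ligand of CXCR4, went the other way, with 11.42, 11.55 and 11.52 in collagen and 10.30, 10.85 and 10.87 in fibrin (-0.82 ± 0.15; limma, adjusted p = 0.00261). The 3 + 3 arrays of Cxcl12 did not overlap. The other lower call, Cxcl14 (-0.33), was lost without collagen replicate 1 or 2 or fibrin replicate 1 or 3, which left 1.

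Of 19 measured components and feedback inhibitors of NF-kB 11 were higher and 0 lower, with a median of 0.38. Nfkbia, the inhibitor that NF-kB induces first, read 10.07, 9.98 and 10.03 in collagen and 10.88, 10.77 and 10.86 in fibrin (0.81 ± 0.07; limma, adjusted p = 4.32e-06). The precursor genes Nfkb1 and Nfkb2 differed by 0.46 and 0.60, the atypical inhibitor Nfkbiz by 1.23, the ribonuclease Zc3h12a by 1.40 and the ubiquitin ligase Birc3 by 1.50. The subunit gene Rela (0.18) and the kinase gene Ikbkb (0.02) did not pass.

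The NF-kB site searched was GGGNNTTTCC on both strands, and 3 promoters of genes described above show where it fell: Cxcl6 (chr14:17596418-17596667 on the minus strand), Cxcl1 (chr14:17479322-17479571 on the minus strand) and Nfkbia (chr6:78597073-78597322 on the minus strand). The 250 bases before the start are given 5′ to 3′ on the gene's strand with the matches in capitals.
Cxcl6: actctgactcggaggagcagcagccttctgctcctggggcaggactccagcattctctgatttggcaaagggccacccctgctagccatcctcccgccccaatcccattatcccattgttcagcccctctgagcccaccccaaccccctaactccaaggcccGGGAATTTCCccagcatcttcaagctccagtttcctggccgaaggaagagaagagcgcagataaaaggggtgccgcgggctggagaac
Cxcl1: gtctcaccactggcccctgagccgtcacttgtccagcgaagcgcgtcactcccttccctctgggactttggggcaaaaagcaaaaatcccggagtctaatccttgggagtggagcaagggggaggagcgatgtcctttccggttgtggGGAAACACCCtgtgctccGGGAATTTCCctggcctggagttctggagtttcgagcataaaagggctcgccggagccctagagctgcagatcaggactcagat
Nfkbia: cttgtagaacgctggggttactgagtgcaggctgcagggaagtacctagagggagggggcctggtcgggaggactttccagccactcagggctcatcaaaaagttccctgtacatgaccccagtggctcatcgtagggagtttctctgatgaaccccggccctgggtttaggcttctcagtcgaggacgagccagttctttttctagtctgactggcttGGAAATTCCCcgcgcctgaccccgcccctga

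The match lay 88 bases before the start in Cxcl6, 102 and 84 in Cxcl1, and 31 in Nfkbia. This site was in 1.51% of all promoters and in 202 of 11805 genes tested (1.71%). It was in 27 of 620 genes called higher (4.35%), 15 of 135 genes higher by 1 or more (11.1%) and 10 of 599 genes called lower (1.67%). Of the 16 promoters of the NF-kB list 5 held it (31.2%) and 0 held the ISRE core; of the interferon target lists 1 of 40 held it (2.5%). The GAS element TTCNNNGAA, bound by STAT dimers, was in 7.61% of genes tested, 7.42% of those called higher and 5.01% of those called lower, but in 18 of 135 genes higher by 1 or more (13.3%) and in 9 of 40 promoters of the interferon target lists (22.5%). Matches of the ISRE core and the NF-kB site overlapped in 1 promoter, of the ISRE core and the GAS element in 8, and of the NF-kB site and the GAS element in 4.

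Several cytokine genes were higher in fibrin. Of 13 measured genes of the interleukin 1 family, its receptors and related regulators, 6 were higher and 0 lower. The call of Il18 was lost when any 1 untreated array was left out, which left 5. Il1a read 3.84, 4.35 and 3.62 in collagen and 7.34, 6.67 and 6.79 in fibrin. Il1b differed by 2.39 ± 0.19 and the receptor antagonist Il1rn by 1.08 ± 0.17. Il18bp and the protease Casp1, also on this list, were the other higher calls. Il6 read 6.39, 6.07 and 5.59 in collagen and 9.08, 8.52 and 8.17 in fibrin (2.57 ± 0.23; limma, adjusted p = 1.06e-05), and its relative Lif differed by 1.38 ± 0.16. Fibrin replicate 1 was the highest array for Il1a and Il6. Csf3, the growth factor of granulocytes, read 5.39, 4.81 and 4.51 in collagen and 8.69, 7.41 and 7.66 in fibrin. Csf1r, the receptor for the macrophage growth factor, was lower (-0.82 ± 0.11), while Il34, a ligand of that receptor, was higher (0.55 ± 0.10). Of 10 leukocyte adhesion genes 5 were higher and 0 lower, namely Sele (0.84), Selp (0.76), Vcam1 (0.75), Icam1 (0.61) and Cd44 (0.33).

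**Figure D4:**
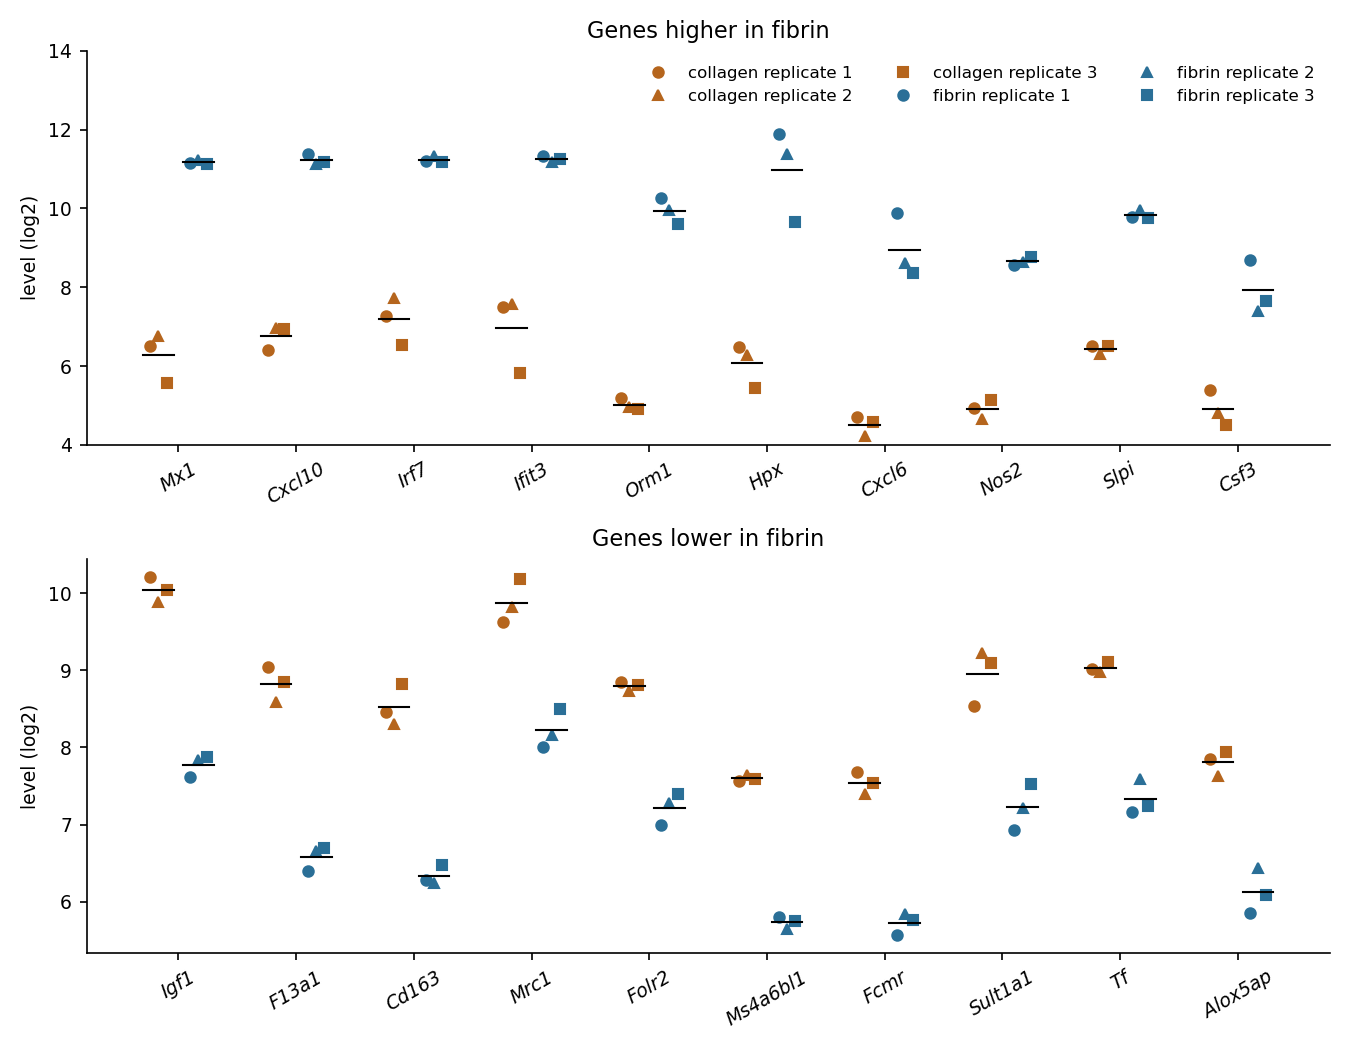
Log2 level on each untreated array (symbols mark the replicate, black lines the mean of 3) for 10 genes higher in fibrin (upper panel) and 10 genes lower in fibrin (lower panel). The gels do not overlap for any of the 20 genes. That was a condition for naming the largest and smallest differences, to which all but Slpi and Csf3 belong. Of all genes tested, 14.3% were higher and 15% lower in fibrin without overlap. Collagen replicate 3 is lowest for Mx1, Irf7 and Ifit3, and fibrin replicate 3 is lowest of the fibrin arrays for Hpx.

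Secreted acute phase and antiprotease proteins held the largest difference of all. Orm1, the plasma glycoprotein orosomucoid, read 5.20, 4.96 and 4.92 in collagen and 10.27, 9.97 and 9.59 in fibrin, 30.3-fold apart (log2 4.92 ± 0.23; limma, adjusted p = 5.44e-08). Hpx, the heme-binding protein hemopexin, read 6.48, 6.28 and 5.45 in collagen and 11.90, 11.39 and 9.66 in fibrin; its fibrin arrays were spread widely, and its standard error of 0.56 on the log2 scale exceeded the 0.23 of Orm1. Slpi, an inhibitor of neutrophil elastase, read 6.50, 6.31 and 6.50 and 9.78, 9.96 and 9.75, and Lcn2, which binds bacterial iron carriers, 5.54, 5.58 and 5.07 and 8.56, 8.27 and 7.998. Of 20 measured members 9 were higher and 1, Itih3, a hyaluronan-binding chain, lower (-0.71; a second lower call appeared without fibrin replicate 3). The fibrinogen chain Fgb (-0.02) and the iron oxidase Cp (-0.23) did not pass.

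Of 19 measured genes of iron handling 8 were higher in fibrin, 5 without fibrin replicate 1, and 2 lower, 3 without fibrin replicate 3. Outside that list, transferrin (Tf), the plasma carrier of iron, read 9.01, 8.97 and 9.11 in collagen and 7.17, 7.59 and 7.24 in fibrin (-1.70 ± 0.15; limma, adjusted p = 7.41e-06). Within it, Hamp, the hormone hepcidin that closes the iron exporter, differed by 1.27 ± 0.12, the metalloreductase Steap4 by 1.49 ± 0.18, and the ferroxidase Heph by -1.06 ± 0.11. The zinc and iron importer Slc39a14 differed by 0.71 ± 0.07, and the metal-binding metallothioneins Mt1 and Mt2A by 0.78 ± 0.07 and 0.48 ± 0.06. Sod2, the mitochondrial superoxide dismutase, read 12.45, 12.36 and 12.18 in collagen and 13.30, 13.20 and 13.08 in fibrin. Of 28 antioxidant genes 9 were higher and 1, the extracellular Gpx3 (-0.78), lower.

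Complement genes went both ways. Of 18 measured 6 were higher, led by C3 (6.52, 6.78 and 6.63 in collagen, 8.84, 8.67 and 8.60 in fibrin), C6 (1.64 ± 0.24) and the receptor C3ar1 (1.06 ± 0.14). The 4 lower calls included C1qb (-1.06 ± 0.13) and C1qc (-0.84 ± 0.13), chains of the recognition protein C1q that macrophages make, and C7 (-0.52 ± 0.09).

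Nos2, inducible nitric oxide synthase, read 4.94, 4.67 and 5.13 in collagen and 8.56, 8.65 and 8.76 in fibrin, 13.4-fold apart (log2 3.74 ± 0.14; limma, adjusted p = 1.52e-08). Genes that supply it were higher as well: Gch1, which starts the synthesis of its cofactor, by 1.23, Ass1, which regenerates arginine, by 0.92, and the arginine transporter Slc7a2 by 0.90. Asl, the enzyme after Ass1 in that pathway, was lower (-0.37 ± 0.08). In the prostaglandin pathway the phospholipase Pla2g2a (2.24 ± 0.31), the inducible cyclooxygenase Ptgs2 (1.32 ± 0.17) and the prostaglandin E synthase Ptges (1.96 ± 0.13) were higher. Hpgds, a prostaglandin D synthase of hematopoietic cells, and Alox5ap, which presents substrate to the leukotriene pathway, were lower, with 6.63, 7.01 and 7.16 against 4.93, 5.56 and 5.53 and 7.85, 7.63 and 7.94 against 5.86, 6.44 and 6.08. Of 21 measured genes of prostaglandin and leukotriene synthesis and response 5 were higher and 5 lower, with lower calls reduced to 2 without collagen replicate 2 or 3 or fibrin replicate 1 and to 3 without any other untreated array. Ptgs1, the constitutive cyclooxygenase, did not pass (-0.38).

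Among genes lower in fibrin, markers of resident macrophages were the clearest group: 14 of 20 measured were lower and the median was -0.83. In pooled ring cultures fewer macrophages and less RNA of these genes per macrophage cannot be told apart. Cd163, a scavenger receptor for hemoglobin, read 8.46, 8.30 and 8.82 in collagen and 6.29, 6.25 and 6.48 in fibrin (-2.19 ± 0.25; limma, adjusted p = 8.59e-05). The mannose receptor Mrc1 read 9.62, 9.82 and 10.18 and 8.01, 8.17 and 8.50, the folate receptor Folr2 8.84, 8.73 and 8.80 and 6.99, 7.28 and 7.39, and the lectin Clec10a 8.12, 7.95 and 8.16 and 6.45, 6.51 and 6.61. Lyve1, a hyaluronan receptor of perivascular macrophages and lymphatics, differed by -1.28 ± 0.14, the lipid sensor Trem2 by -1.40 ± 0.12 and the selenium carrier Selenop by -1.26 ± 0.10. For each of these genes all fibrin arrays lay below all collagen arrays, as they did for 2153 of all genes tested (15%).

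The mean level of the 20 macrophage genes was 8.24, 8.26 and 8.35 on the collagen arrays and 7.29, 7.41 and 7.54 on the fibrin arrays. The difference did not extend evenly over myeloid genes. Of 25 genes shared by myeloid cells 5 were lower and 2 higher, with a median of -0.13 (-0.08 without collagen replicate 1 or fibrin replicate 2, -0.04 without fibrin replicate 1, -0.07 with each array centred) and mean levels of 8.13 to 8.23 in collagen and 7.97 to 8.17 in fibrin. Laptm5, Lcp1 and Tyrobp, which leukocytes share, differed by -1.10, -0.76 and -0.73. Cd14 (0.05), Cd68 (-0.16) and Itgam (0.29), a lipopolysaccharide receptor, a lysosomal glycoprotein and an integrin chain, did not pass. Higher calls were Ncf1, an oxidase subunit (0.43), and Fcgr3a, an antibody receptor whose call was lost without collagen replicate 1 or 3 or any fibrin replicate. In the resident macrophage list the 1 higher call, Siglec1, an interferon-induced lectin, was lost without collagen replicate 1 or 3 or any fibrin replicate.

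Markers of other blood cells held few calls, beside shares of 5.35% higher and 5.19% lower over all genes tested. The neutrophil and lymphocyte genes read low against the median of all genes, 7.04 in collagen and 7.07 in fibrin. A small number of calls among them therefore says little about these cells. The mean level of 14 neutrophil genes was 4.31 to 4.43 on the collagen arrays and 4.38 to 4.54 on the fibrin arrays, and that of 20 lymphocyte genes 4.57 to 4.65 and 4.44 to 4.59. Of the neutrophil genes 1 was called, S100a9 (0.81), whose call was lost without collagen replicate 2 (0 calls); without fibrin replicate 2 there were 2 calls. The 1 lymphocyte call was Cd4 (-1.17), which rat macrophages also express. The mean of 10 dendritic cell genes was 5.87, 5.96 and 5.88 on the collagen arrays and 5.75, 5.82 and 5.73 on the fibrin arrays, and the 1 call was the activation marker Cd83 (-0.86). The mean of 5 platelet genes was 5.51, 5.47 and 5.39 in collagen and 5.32, 5.19 and 5.29 in fibrin, and 0 of the 5 were called. There was 1 lower call without fibrin replicate 1, with quantile scaling, a trended and robust prior or array weights. The same count came without the third of genes of lowest mean and with the replicate number as a random effect. When only the 6 untreated arrays were fitted, or with either replicate block, 2 were lower. The dendritic cell and platelet means were both lower on every fibrin array than on any collagen array, and a shift of a list as a whole was not tested. The part of any cell type in the interferon, chemokine and cytokine differences was not tested.

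Genes of vessel wall cells moved less. Of 23 smooth muscle contractile genes 9 were lower and 0 higher, 5 without collagen replicate 2 or fibrin replicate 1, with a median of -0.20 (-0.13 with each array centred). The actin-binding Tagln read 8.85, 9.15 and 8.83 in collagen and 8.02, 8.42 and 7.95 in fibrin, and Mustn1 and Des differed by -1.07 ± 0.22 and -0.57 ± 0.12. Of 19 fibroblast genes 8 were lower, among them the elastic fibre protein Mfap5 (-1.48 ± 0.08), the globin Cygb (-1.28 ± 0.13) and the adhesive matrix protein Dpt (-0.55 ± 0.08). The 2 fibroblast genes that were higher were the surface glycoprotein gene Ly6c (2.32 ± 0.24) and the matrix glycoprotein Fbln1 (1.08 ± 0.16). Of 16 endothelial genes 1 was higher, Clec14a (0.78 ± 0.17), and 1 lower, Cldn5, whose call was lost without collagen replicate 1 or fibrin replicate 2 or 3. Tek and Tie1, receptor kinases that define endothelium, did not pass, at -0.06 and -0.07.

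Further lower genes belonged to no single group. Igf1, insulin-like growth factor 1, fell furthest, from 10.21, 9.88 and 10.04 in collagen to 7.62, 7.83 and 7.87 in fibrin, 4.83-fold (log2 -2.27 ± 0.13; limma, adjusted p = 2.48e-07). Of 17 measured genes of the IGF system 2 were lower, Igf1 and the binding protein Igfbp4 (-0.93), and 2 higher, the binding protein Igfbp5 (0.71) and the secreted Stc2 (0.83). Ms4a6bl1, a membrane protein gene of the MS4A family, read 7.57, 7.64 and 7.59 and 5.81, 5.65 and 5.75, Fcmr, the receptor for IgM, 7.68, 7.39 and 7.54 and 5.57, 5.84 and 5.77, and the sulfotransferase Sult1a1 8.53, 9.22 and 9.09 and 6.93, 7.22 and 7.53. Rgs18, a regulator of G protein signalling in blood cells, differed by -1.81 ± 0.19, Tacr1, the receptor for substance P, by -1.66 ± 0.15, and Pkhd1l1 by -1.70 ± 0.17.

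For genes that act on fibrin itself the counts were small. Of 13 measured genes of the plasminogen system 2 were higher and 0 lower, 1 lower without fibrin replicate 3. The higher genes were Serpine2, an inhibitor of thrombin and plasminogen activators (0.40 ± 0.06), and Plat, tissue plasminogen activator (0.48 ± 0.11). Plau, urokinase, read 11.48, 10.96 and 11.12 in collagen and 11.26, 10.76 and 11.11 in fibrin with overlap, and its receptor Plaur differed by -0.03. F13a1, the chain of factor XIII that crosslinks fibrin and that macrophages express, read 9.04, 8.59 and 8.85 in collagen and 6.39, 6.65 and 6.70 in fibrin (-2.24 ± 0.17; limma, adjusted p = 2.05e-06). F3, tissue factor, was lower (-0.53 ± 0.10), and the protease inhibitor Tfpi2 (1.62 ± 0.24), factor X (F10, 1.61 ± 0.11) and the anticoagulant receptor Thbd (0.76 ± 0.16) were higher.

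Of 9 measured collagen receptors 1 was higher, Itga2, a chain of the main collagen-binding integrin of several cell types (8.08, 7.72 and 7.66 in collagen, 8.81, 8.70 and 8.61 in fibrin). Its partner Itgb1 (0.01) and the collagen receptor kinases Ddr1 (0.00) and Ddr2 (0.04) did not pass. Of 7 measured integrin chains for fibrin or fibronectin, Itgb8 (1.35 ± 0.11) and the fibronectin receptor chain Itga5 (0.35 ± 0.06) were higher. Itga4 (-0.80 ± 0.15) was lower, as was Itgb5, whose call was lost without collagen replicate 3 or fibrin replicate 1.

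Proteases of the matrix and their inhibitors split. Mmp3, stromelysin, read 8.37, 8.27 and 7.97 in collagen and 10.97, 10.48 and 9.96 in fibrin, Mmp9, gelatinase B, 5.74, 5.98 and 5.58 and 7.45, 7.72 and 7.34, and the inhibitor Timp1 11.90, 11.92 and 11.77 and 13.12, 12.99 and 12.86; these were the 3 higher calls among 20 genes. The 4 lower calls were the inhibitors Timp3 (-0.87 ± 0.15), Timp4 (-0.77 ± 0.15) and Reck (-0.41 ± 0.09) and the protease Mmp11 (-0.82 ± 0.10). Mmp14, the membrane collagenase, and Mmp2, which it activates, did not pass, at 0.17 and 0.12 (limma, adjusted p = 0.124 and 0.265). Of 25 fibrillar collagen and processing genes 0 were higher and 4 lower, 2 without collagen replicate 3 or fibrin replicate 1. Col14a1, which decorates fibrils, differed by -1.20 ± 0.12, whereas the chains of type I collagen, Col1a1 (0.09) and Col1a2 (-0.02), did not pass.

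Of 9 measured genes of the VEGF axis 0 were higher and 2 lower, the ligand Vegfb (-0.36) and the co-receptor Nrp1 (-0.39). Those lower calls numbered 1 without collagen replicate 1 or 2 and 0 without collagen replicate 3, without fibrin replicate 1 or 2, or with each array centred. Vegfa read 8.23, 8.45 and 8.52 in collagen and 8.28, 8.79 and 8.91 in fibrin and did not pass (adjusted p = 0.337, limma). Of 21 Notch and tip cell genes 1 was higher, the Notch target Hes1 (0.53), 2 without collagen replicate 2. Angpt1, the ligand that stabilises vessels through Tek, read 6.14, 6.20 and 6.33 in collagen and 7.44, 7.37 and 7.55 in fibrin (1.24 ± 0.12; adjusted p = 2.11e-05), while its antagonist Angpt2 did not pass (-0.21). Of the 7 measured angiopoietin and Tie genes the other calls were Angptl4, higher (0.67 ± 0.15), and Angptl2, lower (-0.49), whose call was lost without collagen replicate 2 or 3 or fibrin replicate 1 or 2 and with each array centred. Hgf, hepatocyte growth factor, read 9.32, 9.34 and 8.98 and 10.89, 10.80 and 10.30. In the TGF-beta and BMP families, Fst, which traps activin, differed by 1.85 ± 0.16, the BMP target Id1 by 1.14 ± 0.11, Bmp2 by 0.57 ± 0.12 and Bmp4 by -0.49 ± 0.10.

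In the glycolysis and hypoxia list the oxygen-sensing factor Hif1a (0.48 ± 0.06), the glucose transporter Slc2a1 (0.55 ± 0.10) and the hypoxia-induced peptide Adm (0.86 ± 0.17) were higher; 9 of 36 glycolysis and hypoxia genes were higher and 0 lower, 5 higher without collagen replicate 1 or fibrin replicate 2 or 3. In fatty acid metabolism 7 of 23 genes were lower, among them the fuel-switch kinase Pdk4 (-1.05 ± 0.18), the fatty acid importer Cd36 (-1.01 ± 0.13) and the lipase Lpl (-0.89 ± 0.15). Of 67 cytosolic ribosomal protein genes 25 were lower and 0 higher, with a median of -0.22. That count was 11, 9 and 12 without collagen replicate 1, 2 or 3, 6, 8 and 16 without fibrin replicate 1, 2 or 3, and 7 with each array centred, where the median was -0.16. Of 39 cell cycle genes 1, the cyclin gene Ccnd2 (-0.27), was lower and 0 were higher; that call was lost when any array other than fibrin replicate 2 was left out.

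The same contrast could be set beside its counterpart in TNF, on arrays that it does not share, though the fit pools their spread. With TNF 1173 genes differed between the gels (8.19%), 652 higher in fibrin (4.55%) and 521 lower (3.64%). Leaving out collagen TNF replicate 3 reduced that total to 727, and leaving out fibrin TNF replicate 1 reduced it to 768. The higher calls were 433 and 428 without collagen TNF replicate 2 or 3, and the lower calls 316 and 299 when collagen TNF replicate 1 or 3 was left out and 315 when fibrin TNF replicate 1 was. Of the 767 genes higher without TNF, 646 had the same sign with TNF, 332 were called higher again and 11 were called lower. Their median log2 difference was 0.51 without TNF and 0.27 with it. These genes were chosen by their untreated calls, and such a choice alone makes the value with TNF tend to be smaller. Of the 743 lower genes 636 kept their sign, 231 were called lower again and 4 were called higher. Interferon targets kept most of the difference, with 44 of 53 called higher, 1 lower and a median of 1.35, and Mx1 differed by 3.43 with TNF. Macrophage genes did so as well, with 14 of 20 lower and a median of -0.98.

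A test of the difference between the 2 contrasts called 177 genes (1.24%), 124 with a smaller or more negative fibrin effect in TNF (0.866%) and 53 with a more positive one (0.37%). The total was 117 when collagen TNF replicate 1 was left out, 103 for collagen TNF replicate 2 and 112 for fibrin control replicate 2; the more negative calls were 81 without collagen TNF replicate 2 and 82 without fibrin control replicate 2. The more positive calls numbered 29 without collagen control replicate 2, 33 and 30 without fibrin control replicate 1 or 2, and 31, 22 and 30 without collagen TNF replicate 1, 2 or 3. Of the 767 higher genes 91 were among the 177 calls, 89 toward zero. The 767 were chosen by the same untreated difference that the test subtracts. A lean toward zero is therefore built into this count, and how far it goes beyond that was not tested. Secreted acute phase and antiprotease genes held 8 of the 177 calls, all with a smaller or more negative fibrin effect in TNF. The mean of Slpi was 6.44 ± 0.11 in collagen and 9.83 ± 0.12 in fibrin (SD, n = 3), and with TNF 10.73 ± 0.15 and 10.05 ± 0.42. For Hpx the corresponding means were 6.07 ± 0.55 and 10.98 ± 1.18 without TNF and 10.99 ± 0.76 and 11.10 ± 0.78 with it. For both genes the mean of the collagen cultures with TNF was at or above that of the fibrin cultures without it. Of the chemokines 9 were called in this test, each with a smaller or more negative fibrin effect in TNF.

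**Figure D5:**
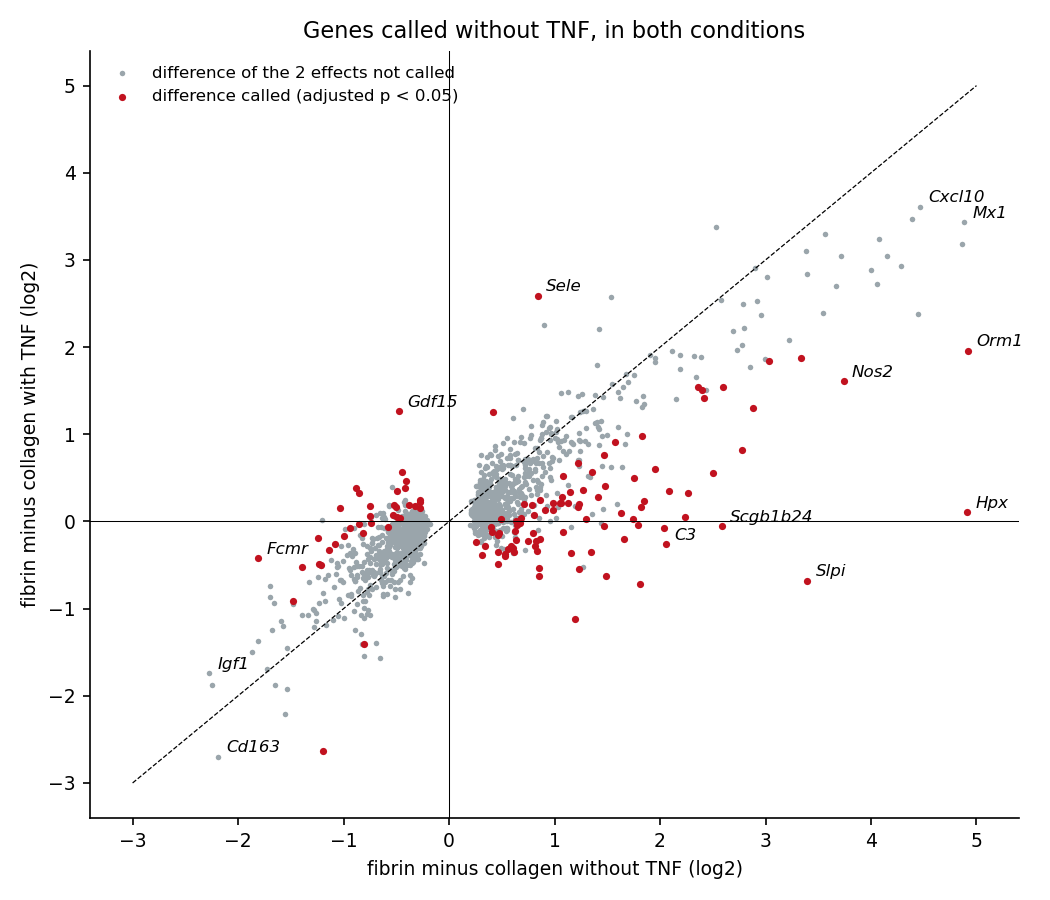
Log2 difference of fibrin minus collagen with TNF (y axis) against the same difference without TNF (x axis) for the 1510 genes called without TNF; red points are genes for which the difference between both effects was called (limma, adjusted p under 0.05), and the dashed line marks equal effects. Hpx and Slpi lie near or below zero with TNF, whereas Mx1 and Cxcl10 stay above 3.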

How the data were processed

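Gene expression in 12 pooled samples was measured on Affymetrix whole-transcript arrays, 1 sample an array, with 3 arrays a group. The authors deposited 1 table of 27342 probe sets whose values of 1.44 to 14.07 were read as log2 intensities, made by the authors with a summary and normalization of the probes that no label or header describes. The submitters' processing notes list limma. Precision is limited by the 3 arrays a group. Probe sets were named from the platform annotation: 15097 carried 1 gene symbol, 323 several and 11922 none; 15067 gene identifiers were found in RefSeq GRCr8. Each gene was represented by the single-symbol probe set of highest mean over 12 arrays (499 genes had more than 1).

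A limma linear model (version 3.58.1, R 4.3.3) with 4 group means was fitted to all 14324 genes on all 12 arrays, with empirical Bayes variances and Benjamini-Hochberg adjustment at 0.05. Contrasts were fibrin minus collagen without TNF, the same with TNF, and the difference of these. The fit was tested on simulated data. Genes named were the 15 largest and 15 smallest differences among non-overlapping calls, the 8 largest and 8 smallest of the difference between contrasts, members of short lists, up to 8 called in each direction and 4 not called from longer lists, and a fixed set. Members and lists were chosen with earlier results of these data known. Alternatives covered arrays fitted, centring, quantile scaling, a dim-gene filter, prior, array weights, probe sets, replicate number as a block, arrays left out and a looser ISRE core. Promoters came from RefSeq GRCr8; genes with several windows (3251) used the first.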

Additional observations from a re-analysis of the deposited data

Results flagged for a closer look

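The effect of fibrin without TNF differed from that with TNF for 177 genes, by a test of the difference itself (limma, Benjamini-Hochberg adjusted p under 0.05). The genes below are the 8 at each end of that difference, given as the fibrin minus collagen log2 difference with TNF minus that without TNF.

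The fibrin effect was smaller or more negative with TNF for the heme-binding protein gene Hpx, by -4.80 (adjusted p = 0.0107), and for the antiprotease gene Slpi, by -4.07 (adjusted p = 5.1e-06). Car9, a carbonic anhydrase induced by hypoxia, differed by -3.36 (adjusted p = 0.00358); its fibrin minus collagen difference was 0.44 without TNF, which was not called and ranged over 0.06 to 0.81 across the alternatives (adjusted p 0.077 to 0.929), and -2.92 with it. The corresponding values were -2.96 (adjusted p = 0.000858) for Orm1 and -2.64 (adjusted p = 0.00334) for the secretoglobin Scgb1b24. For the chemokine Ccl9 the value was -2.53 (adjusted p = 0.000434), and its difference was 1.81 without TNF and -0.72 with it. The complement gene C3 gave -2.32 (adjusted p = 0.000482) and the GABA receptor subunit gene Gabrp -2.31 (adjusted p = 0.00619); Gabrp differed by 1.20 without TNF and -1.11 with it.

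The effect was more positive with TNF for the endothelial selectin Sele, by 1.75 (adjusted p = 0.000482), with a difference of 0.84 without TNF and 2.59 with it. Gdf15, a stress-induced TGF-beta relative, gave 1.74 (adjusted p = 0.000434) and differed by -0.48 without TNF and 1.27 with it. The activation marker Cd69 gave 1.53 (adjusted p = 0.0249), the IgM receptor Fcmr 1.39 (adjusted p = 0.000434) and the oxidised lipoprotein receptor Olr1 1.30 (adjusted p = 0.0333). The gene 6330403K07Rikl gave 1.26 (adjusted p = 0.0305), the deiodinase Dio3 1.20 (adjusted p = 0.00841) and the dendritic cell marker Cd83 1.18 (adjusted p = 0.00322). Of these 16 genes, Cd69, Olr1 and 6330403K07Rikl lost the call in 5, 9 and 6 of 20 alternatives, each of which left out 1 array, with adjusted p values up to 0.0731, 0.09 and 0.0806 (limma).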

How the results depend on the processing

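Of 721 genes covered by the naming rule 354 were called without TNF, and 254 of these kept the call in all of up to 16 alternatives; the genes described as higher or lower are among the 254 except Plat and those whose losses are stated beside them, and Cxcl14, Ccnd2, S100a9, Vegfb and Angptl2 also lost their calls when only the 6 untreated arrays were fitted, and Nrp1 with the replicate block over 12 arrays. Leaving out 1 array gave 1071 to 1298 genes between the gels without TNF (571 to 674 higher, 482 to 624 lower), 727 to 1196 with TNF (428 to 640 higher, 299 to 584 lower) and 103 to 246 for the difference between these (22 to 77 more positive, 81 to 169 more negative). Centring gave 1217 higher and 474 lower without TNF. The difference between contrasts called 294 genes (108 more positive) without the third of genes of lowest mean, where fewer genes are tested, and 339 (127 more positive, 212 more negative) with a trended and robust prior; the cause of the latter was not tested. The looser ISRE core was in 14.4% of promoters called higher, 6.01% of those called lower and 8.21% of all tested, since it has fewer letters. The other alternatives left the counts of genes without TNF between 1214 and 1824; with all probe sets tested singly, 1986 probe sets were called.

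Whether the replicate numbers pair the samples was not settled, and the main fit did not use them. Deviations of same-numbered arrays correlated at 0.23, 0.08 and 0.13 over genes, and those of differently numbered arrays at -0.21 to 0.10. Fibrin replicate 2 correlated slightly better with collagen replicate 3 (0.10) than with collagen replicate 2 (0.08). With the replicate number as a block, 1824 genes were called without TNF over 12 arrays and 1214 within the 6 untreated arrays, where the adjusted p of Plat was 0.0509 (limma). As a random effect within each gel it gave 1510. For the difference between contrasts the replicate block called 276 genes (89 more positive, 187 more negative), or 373 (150 and 223) as the random effect.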

Other observations

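Among the 57 genes higher in fibrin by 2 or more on the log2 scale without TNF, 10 stood in no gene list; they are named here after their values were seen. Ces1f, a carboxylesterase gene, read 4.42, 4.37 and 4.71 in collagen and 7.97, 7.75 and 7.78 in fibrin, a difference of 3.33 ± 0.14 (SE; limma, Benjamini-Hochberg adjusted p = 2.23e-08). Slfn4, a Schlafen family gene, read 4.98, 4.86 and 4.82 in collagen and 7.98, 7.69 and 8.07 in fibrin. Ubd, a ubiquitin-like modifier also called FAT10, read 5.30, 4.74 and 5.48 in collagen and 8.04, 8.21 and 7.84 in fibrin. None of these 3 genes had arrays of the 2 gels that overlapped. Ly6e, a surface protein with a role in viral entry, differed by 2.60 ± 0.12, the secretoglobin Scgb1b24 by 2.59 ± 0.25, and Tll1, a tolloid-like protease, by 2.43 ± 0.23. The lectin Siglec5 differed by 2.40 ± 0.08, Slamf9 by 2.15 ± 0.17, and Scin, an actin-severing protein, by 2.04 ± 0.21. The gene listed as Rig1 differed by 2.19 ± 0.14.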
